A study of Mus musculus with 8 samples.

Results

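The interleukin 6 family was followed through 10 genes, chosen by name: the ligand genes Il6, Osm and Lif, the receptor genes Il6ra, Il6st and Osmr, the signalling genes Stat3 and Socs3, and the transcription factor genes Cebpb and Cebpd. All 10 were found among the 47643 genes of the macrophage table and the 52458 entries of the plasma cell table. RNA of 8 samples of bone marrow cells from wild-type B6 mice was sequenced. Mice were injected in the tibia with CD138-purified, GFP-positive Vk*MYC myeloma, a mouse plasma cell tumour, and their tumour-associated macrophages (TAM) were gated on high F4/80 and low CD11b. The GFP-positive TAM stand for macrophages in contact with the tumour (TAM-IC, n = 2) and the GFP-negative ones for those not in contact (TAM-NIC, n = 2), so contact is defined by GFP alone. Bone marrow macrophages of naive mice are the control (n = 2), and 2 further samples are labelled plasma cells. No treatment was given, and no age is stated. The labels do not say whether a plasma cell sample is Vk*MYC myeloma or polyclonal plasma cells of naive mice, both of which the design names.

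Cytokines of this family share the signal-transducing receptor chain gp130, the product of Il6st. Interleukin 6 reaches it through its own receptor chain, the product of Il6ra, while oncostatin M and leukaemia inhibitory factor pair gp130 with the oncostatin M receptor or the leukaemia inhibitory factor receptor. The engaged receptor activates Janus kinases and the transcription factor STAT3. Socs3 is induced in turn and shuts the receptor down, and C/EBP beta and C/EBP delta are transcription factors of the acute phase response. In bone marrow, interleukin 6 is known as a growth and survival factor of plasma cells and myeloma.

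The promoters of 4 genes are shown because these form the main patterns below: Il6 and Lif were highest in the same library, and Socs3 and Cebpb were higher in all TAM libraries than in naive macrophages. They are RefSeq promoters of build GRCm38.p6, from 250 bases before to 50 after the gene's start: Il6 at chr5:30012864-30013163, plus strand, Lif at chr11:4257318-4257617, plus strand, Socs3 at chr11:117969317-117969616, minus strand and Cebpb at chr2:167688665-167688964, plus strand. Capitals mark matches, on either strand, to motifs of NF-kB (GGG, any 2 bases, then TTTCC), C/EBP (TTGNGCAA), STAT (TTCNNNGAA) and AP-1 (TGANTCA).
Il6: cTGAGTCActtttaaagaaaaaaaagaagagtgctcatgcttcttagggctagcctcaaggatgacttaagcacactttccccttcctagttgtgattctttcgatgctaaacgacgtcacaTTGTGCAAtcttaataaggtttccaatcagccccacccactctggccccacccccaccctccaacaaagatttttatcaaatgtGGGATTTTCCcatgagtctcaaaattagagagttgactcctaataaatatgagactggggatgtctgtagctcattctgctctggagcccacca
Lif: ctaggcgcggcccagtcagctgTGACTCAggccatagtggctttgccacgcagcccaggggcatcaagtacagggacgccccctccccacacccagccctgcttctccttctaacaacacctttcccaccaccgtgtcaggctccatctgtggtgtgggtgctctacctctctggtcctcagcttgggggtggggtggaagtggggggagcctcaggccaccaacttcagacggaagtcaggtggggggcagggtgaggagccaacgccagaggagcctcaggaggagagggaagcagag
Socs3: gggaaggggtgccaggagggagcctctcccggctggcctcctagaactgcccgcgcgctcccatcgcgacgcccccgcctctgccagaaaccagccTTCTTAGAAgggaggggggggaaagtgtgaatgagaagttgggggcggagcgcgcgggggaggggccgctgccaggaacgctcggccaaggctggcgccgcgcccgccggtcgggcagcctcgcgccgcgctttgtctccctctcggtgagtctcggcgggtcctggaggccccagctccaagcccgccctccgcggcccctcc
Cebpb: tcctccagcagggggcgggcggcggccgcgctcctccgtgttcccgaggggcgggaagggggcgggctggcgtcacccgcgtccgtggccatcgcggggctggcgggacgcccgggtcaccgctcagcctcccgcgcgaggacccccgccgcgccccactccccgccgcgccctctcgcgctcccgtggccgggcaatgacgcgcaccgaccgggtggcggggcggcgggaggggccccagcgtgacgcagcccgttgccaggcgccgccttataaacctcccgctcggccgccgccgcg
The Il6 promoter held an AP-1, a C/EBP and an NF-kB match, beginning 249, 128 and 44 bases before the start. The Lif promoter held an AP-1 match 228 bases before the start, and the Socs3 promoter a STAT match 154 bases before its RefSeq start. The whole Socs3 window lies inside the gene as GENCODE gives it (117966079 to 117970047, minus strand), so the 2 sources place the start differently. No match was found in the Cebpb window. RefSeq promoters were matched for 8 of the 10 members, and among these NF-kB, C/EBP and STAT each matched 1 promoter and AP-1 matched 3. Of 32851 promoters of the same length, 1.63% held the NF-kB, 2.94% the C/EBP, 8.3% the STAT and 7.81% the AP-1 letters. The matches overlapped no other match in these windows and describe letters, not binding.

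Total counts were 42134293 to 44491870 in TAM-IC, 31047348 to 41357964 in TAM-NIC, 28887725 to 46873056 in naive macrophages, and 38343783 to 81792139 in plasma cells. The 9 macrophage markers were detected in every macrophage library, and the 9 plasma cell markers summed to 64632 and 86277 CPM, counts scaled to the same library total, in plasma cells. One library stood apart: replicate 2 of TAM-NIC had 9.13% of its counts on immunoglobulin genes, against 0.166% to 0.632% in the other macrophage libraries. Its plasma cell markers summed to 5762 CPM, against 709 to 920.5 CPM in the other 5, and its 8 stromal markers to 117 CPM, against 13.8 to 51.7 CPM. The stromal excess rested on Cxcl12 (48.4 CPM, against 0.237 to 3.67 CPM) and the collagen genes. Kitl, at 39.3 CPM, was near replicate 1 of naive macrophages (38.0 CPM). Pdgfrb, at 3.51 CPM, lay below TAM-IC (9.93 and 17.6 CPM), and Lepr and Pdgfra were at 0 CPM. The 9 macrophage markers of this library summed to 10770 CPM, against 19193 to 26128 CPM in the other 5, and its 8 megakaryocyte markers to 284 CPM, against 57.6 to 128 CPM. Neutrophil markers were present in every macrophage library, with 10 of 10 detected and sums of 28604 and 50679 CPM in TAM-IC, 9354 and 18125 CPM in TAM-NIC, and 48222 and 75155 CPM in naive macrophages. The labels give the TAM libraries mouse numbers, but do not say whether each sample came from 1 animal. Replicate 2 of TAM-IC was the only macrophage library with Y-linked transcripts at more than trace level, so it and replicate 2 of TAM-NIC, which carry the same mouse number, were not taken as 1 animal. The p-values therefore cover the spread among these libraries. In TAM-IC, Xist stood at 17.5 and 0 CPM and the Y-linked gene Ddx3y at 0 and 88.4 CPM in replicates 1 and 2. These libraries thus came from different animals, and their spread includes sex. The TAM-NIC libraries are labelled mouse 1 and mouse 2. The naive macrophage and plasma cell labels carry no mouse number, so the spread in those groups may be technical. Replicate 2 of TAM-IC also had the highest Socs3 and Cebpb values below, and the part of sex in them was not tested.

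Il6, on chromosome 5 (GRCm38, 30013114 to 30019981, plus strand), was a low transcript in all macrophage libraries but one. It stood at 2.34 and 0.498 CPM in TAM-IC, 1.77 and 27.1 CPM in TAM-NIC, and 0.832 and 1.66 CPM in naive macrophages, in the order of replicates 1 and 2 used throughout. Only replicate 2 of TAM-NIC was high, and replicate 1 of that group lay between the libraries of TAM-IC. For TAM-IC over TAM-NIC, edgeR gave a log2 fold change of -3.32 ± 1.36 (SE, 2 libraries per group, adjusted p = 0.292). Over naive macrophages it was 0.33 ± 1.27 (adjusted p = 0.922) in TAM-IC and 3.65 ± 1.38 (adjusted p = 0.304) in TAM-NIC, in edgeR. Without replicate 2 of TAM-NIC the first value was -0.36 and the last 0.69, and without replicate 1 of TAM-NIC the first was -4.20 (edgeR adjusted p = 0.0474, against 0.467 to 0.883 without any other library). The middle value was -1.11 without replicate 1 of TAM-IC and -0.08 without replicate 1 of naive. The high library is the one with the stromal, plasma cell, megakaryocyte and macrophage marker sums given above. It also had the highest sum of the immediate early and heat shock genes given below. The part of these sums in the Il6 value was not tested. In the plasma cell libraries themselves Il6 had 3 counts and 1 count, or 0.0367 and 0.0261 CPM.

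Lif (chromosome 11, 4257557 to 4272514, plus strand), the gene of leukaemia inhibitory factor, was detected in every TAM library and in neither naive library. It had 33 and 27 counts in TAM-IC, 25 and 227 counts in TAM-NIC, and 0 and 0 counts in naive macrophages. Replicate 2 of TAM-NIC was again the highest, at 7.31 CPM against 0.604 to 0.742 CPM in the other TAM libraries. A naive count of 0 allows up to 3 counts over the group, or 0.0396 CPM, so the pooled Lif level was at least 17.5-fold higher in TAM-IC and at least 87.9-fold higher in TAM-NIC. For replicate 1 of TAM-NIC alone that limit was 15.3-fold. These limits cover counting error only. Over naive, the edgeR adjusted p was 0.229 in TAM-IC and 0.219 in TAM-NIC, and 0.03995 and 0.019 without replicate 1 of TAM-NIC. Without any other library it was 0.0657 to 0.8495 in TAM-IC and 0.0757 to 0.89 in TAM-NIC. Between TAM-IC and TAM-NIC the log2 fold change was -2.47 ± 1.264 (edgeR adjusted p = 0.388), 0.16 without replicate 2 of TAM-NIC, and -3.34 (adjusted p = 0.0453, against 0.514 to 0.952 without any other library) without its replicate 1. With only the 4 libraries of TAM-IC and naive in the fit, the edgeR adjusted p was 0.0465.

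Osm (chromosome 11, 4236420 to 4241026, plus strand) encodes oncostatin M and lies beside Lif on the same strand. It was the most abundant of the 3 ligand genes per length of transcript in every library. It stood at 52.6 and 78.6 CPM in TAM-IC, 12.9 and 96.7 CPM in TAM-NIC, and 32.0 and 45.4 CPM in naive macrophages. Both the lowest and the highest macrophage value belonged to TAM-NIC, while the libraries of TAM-IC lay above both naive libraries. The log2 fold change of TAM-IC was 0.31 ± 0.82 over TAM-NIC (edgeR adjusted p = 0.885; -0.49 without replicate 1 of TAM-NIC and -0.03 without replicate 2 of TAM-IC) and 0.93 ± 0.83 over naive (adjusted p = 0.627). For TAM-NIC over naive it was 0.62 ± 0.83 (edgeR adjusted p = 0.781), and -1.40 without replicate 2 of TAM-NIC.

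**Figure D1:**
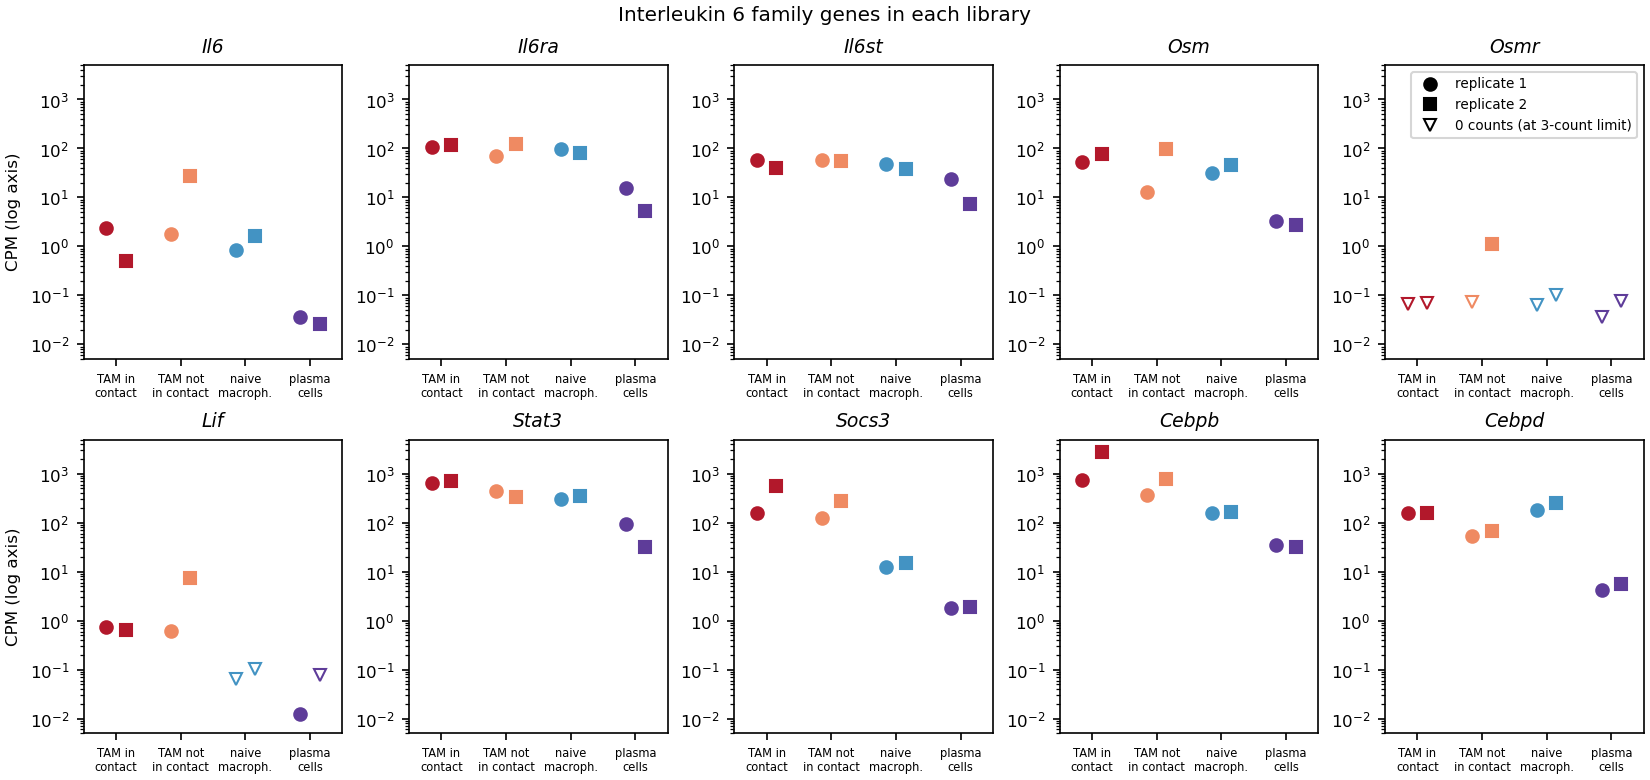
Level of each of the 10 genes in CPM on a log axis, by group, with a point per library (circle, replicate 1; square, replicate 2). Open triangles are libraries with 0 counts, drawn at the level of 3 counts. Il6, Lif and Osmr are highest in replicate 2 of TAM-NIC, and Socs3 and Cebpb lie above naive macrophages in all 4 TAM libraries.

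The receptor genes Il6ra and Il6st varied little between macrophage groups. Il6ra (chromosome 3, 89864059 to 89913196, minus strand), the interleukin 6 binding chain, stood at 105 and 116 CPM in TAM-IC, 71.3 and 121 CPM in TAM-NIC, and 96.7 and 80.5 CPM in naive macrophages. TAM-IC lay above naive in both libraries, and TAM-NIC spanned the other groups. Its log2 fold changes were 0.23 ± 0.31 for TAM-IC over TAM-NIC, 0.48 ± 0.31 over naive and 0.25 ± 0.31 for TAM-NIC over naive (edgeR adjusted p = 0.749, 0.5 and 0.76). Without replicate 1 of TAM-NIC the first was -0.07, and without its replicate 2 the last was -0.15. Il6ra shares 242 exonic bases with Gm42809 on the other strand. Il6st (chromosome 13, 112464070 to 112510086, plus strand), the gp130 gene, stood at 57.4 and 39.2 CPM in TAM-IC, 58.8 and 54.7 CPM in TAM-NIC, and 47.5 and 38.4 CPM in naive macrophages. All 6 values lay within a narrow band, and only TAM-NIC stood clear of naive. Its log2 fold changes in the same order of comparisons were -0.22 ± 0.27, 0.32 ± 0.27 and 0.54 ± 0.27 (edgeR adjusted p = 0.715, 0.602 and 0.403), the first being 0.0064 without replicate 2 of TAM-IC. A p that misses the threshold does not show that the groups had equal levels.

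Osmr (chromosome 15, 6813577 to 6874969, minus strand), which encodes the oncostatin M receptor chain, had 0 counts in 7 of the 8 libraries. The exception was replicate 2 of TAM-NIC, with 34 counts or 1.10 CPM. The limits that a count of 0 allows were 0.0674 and 0.0712 CPM in TAM-IC, 0.0725 CPM in replicate 1 of TAM-NIC, 0.064 and 0.104 CPM in naive macrophages, and 0.0367 and 0.0782 CPM in plasma cells. Osmr was the 1 member that did not pass the filter on low counts and was not tested. Lifr, whose product is the receptor chain for leukaemia inhibitory factor, was detected in all 6 macrophage libraries. It stood at 27.4 and 44.3 CPM in TAM-IC, 15.8 and 8.25 CPM in TAM-NIC, and 6.12 and 7.48 CPM in naive macrophages. The groups followed one another without overlap (TAM-IC over naive, log2 fold change 2.57 ± 0.46, edgeR adjusted p = 0.117, DESeq2 adjusted p = 4.01e-05).

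Receptor genes in plasma cells were set beside ligand genes in macrophages, which describes RNA levels and does not show which cells respond. The tables are separate and no test was made between them. In plasma cells Il6ra stood at 15.4 and 5.37 CPM and Il6st at 23.5 and 7.43 CPM, so replicate 1 was higher for both. Lifr stood at 0.66 and 0.391 CPM there, against 6.12 to 44.3 CPM in macrophages. Immunoglobulin genes took 67.3% and 70.4% of plasma cell counts and lower the CPM of every other gene. With immunoglobulin genes left out of the total, Il6ra stood at 47.0 and 18.2 CPM in plasma cells, against 71.5 to 134 CPM in macrophages. Il6st then stood at 71.7 and 25.1 CPM in plasma cells, against 38.7 to 60.2 CPM in macrophages, so the plasma cell libraries lay on either side of the macrophage range.

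Plasma cell libraries also held macrophage transcripts at a low level, and the members were read beside them. The mean CPM of each of 9 macrophage markers in plasma cells was 0.498% to 2.55% of its mean in macrophages (median 0.781%). The summed markers of other cell types were at 3.48% for neutrophils, 6.96% for T cells, 32.4% for monocytes and 33.4% for eosinophils and basophils. On that scale Il6st was at 31.3%, Stat3 at 13.8% and Il6ra at 10.5%. They were above every macrophage marker but below the monocyte sum and the eosinophil and basophil sum. Each of these 2 sums rested mostly on 1 gene in plasma cells. Ly6c2 stood at 820 and 718 CPM there, but the monocyte marker Ccr2 at 4.62 and 3.81 CPM. Prg2 stood at 747 and 88.1 CPM, but Epx at 2.16 and 2.27 CPM. The 2 shares therefore do not describe their lists as a whole, and their part in the plasma cell values was not tested. Osm was at 5.60%, Cebpb at 4.01% and Cebpd at 3.42%. Socs3, at 0.967%, and Il6, at 0.550%, lay within the range of the macrophage markers, so their plasma cell counts cannot be told apart from macrophage RNA at that level. Lif was at 0.394%, with 1 count and 0 counts. In plasma cells Stat3 stood at 95.7 and 32.5 CPM, and at 292 and 110 CPM with immunoglobulin genes left out, against 302 to 714 CPM in macrophages on that scale. Of the other members Osm stood at 3.23 and 2.71 CPM, Socs3 at 1.81 and 1.90 CPM, Cebpb at 34.7 and 32.1 CPM and Cebpd at 4.29 and 5.58 CPM in plasma cells. Stat3, like the receptor genes, was higher in replicate 1, while Socs3, Osm and Cebpb were close between the replicates. The eosinophil and basophil sum was also higher in replicate 1, at 784 CPM against 107 CPM in replicate 2 (10 of 10 detected in each). Most of it was Prg2, at 747 and 88.1 CPM. Il5ra (25.2 and 6.96 CPM) and Mcpt8 (3.68 and 2.76 CPM) were also higher in replicate 1. The other genes of the list, among them Epx (2.16 and 2.27 CPM), were lower there. The part of these genes in the difference was not tested.

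On a scale of CPM per kilobase of exon, which allows levels of different genes to be compared, Osm averaged 28.9 ± 8.09 in TAM-IC, 24.1 ± 26.1 in TAM-NIC and 17.0 ± 4.18 in naive macrophages (SD, n = 2 each). Il6 averaged 0.584 ± 0.536, 5.95 ± 7.38 and 0.514 ± 0.242 in these groups. The oncostatin M transcript was therefore the higher ligand transcript in every library, by the narrowest margin in TAM-NIC, where replicate 1 had 5.69 of Osm and 0.727 of Il6, and replicate 2 had 42.6 of Osm and 11.2 of Il6. Among receptors Il6ra averaged 12.8 ± 0.908 in TAM-IC, 11.1 ± 4.10 in TAM-NIC and 10.2 ± 1.32 in naive macrophages, and exceeded Il6st in every macrophage library. In plasma cells Il6st averaged 1.39 ± 1.02 and Il6ra 1.20 ± 0.819, which is within their spread.

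**Figure D2:**
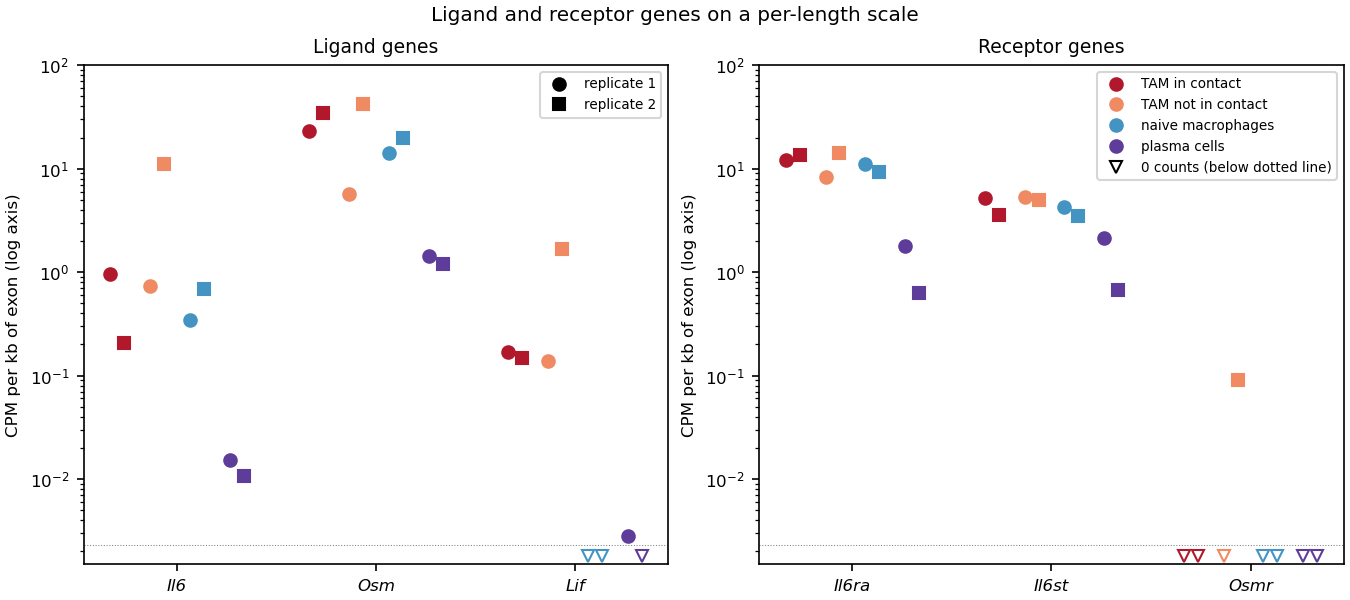
Ligand genes (left) and receptor genes (right) in CPM per kilobase of exon on a log axis, with a point per library (circle, replicate 1; square, replicate 2). Open triangles below the dotted line are libraries with 0 counts. Osm is the highest ligand gene in each library, and Il6ra and Il6st are present in plasma cells while Osmr is at 0 there.

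Stat3 (chromosome 11, 100885098 to 100939540, minus strand), the transcription factor downstream of gp130, was highest in TAM-IC. It stood at 648 and 712 CPM in TAM-IC, 439 and 331 CPM in TAM-NIC, and 300.4 and 348 CPM in naive macrophages. TAM-IC lay above the other groups in both libraries, while TAM-NIC and naive overlapped. The 8 monocyte markers had the same order, with sums of 3149 and 5189 CPM in TAM-IC, 1139 and 2978 CPM in TAM-NIC, and 971 and 1697 CPM in naive macrophages. Their part in the values of Stat3, and of Lifr and Jak2, which were also highest in TAM-IC, was not tested. The log2 fold change of TAM-IC was 0.84 ± 0.32 over TAM-NIC (edgeR adjusted p = 0.267, DESeq2 adjusted p = 0.0495) and 1.23 ± 0.32 over naive (edgeR adjusted p = 0.21, DESeq2 adjusted p = 0.0015). Stat3 shares 72 exonic bases with Stat5a on the other strand, and counting without strand could not separate reads there.

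Socs3 (chromosome 11, 117966079 to 117970047, minus strand), the feedback inhibitor of gp130 signalling, differed most between TAM and naive macrophages among the members with counts in all groups. It stood at 162 and 567 CPM in TAM-IC, 123 and 272 CPM in TAM-NIC, and 12.5 and 15.3 CPM in naive macrophages. Each TAM library lay above both naive libraries, and the 2 TAM groups overlapped. The log2 fold change over naive was 4.89 ± 0.77 in TAM-IC (edgeR adjusted p = 0.0902, DESeq2 adjusted p = 1.97e-10) and 3.96 ± 0.74 in TAM-NIC (edgeR adjusted p = 0.219, DESeq2 adjusted p = 1.58e-06). For TAM-IC over TAM-NIC it was 0.93 ± 0.66 (edgeR adjusted p = 0.512) and -0.28 without replicate 2 of TAM-IC. The comparisons over naive share the naive libraries. With only the 4 libraries of TAM-IC and naive in the fit, the edgeR adjusted p for Socs3 was 0.0313. It was 0.0339 without replicate 1 and 0.03695 without replicate 2 of TAM-NIC, but 0.151 and 0.422 without replicate 1 or 2 of TAM-IC, and 0.772 and 0.46 without replicate 1 or 2 of naive. The log2 fold change of TAM-IC over naive was 3.65 without replicate 2 of TAM-IC. For TAM-NIC over naive the edgeR adjusted p was 0.0484 without replicate 1 of TAM-NIC and 0.0794 to 0.89 without any other library.

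Cebpb (chromosome 2, 167688915 to 167690418, plus strand), the gene of C/EBP beta, had the same order of groups. It stood at 757 and 2775 CPM in TAM-IC, 364 and 768 CPM in TAM-NIC, and 158 and 169 CPM in naive macrophages. All 4 TAM libraries lay above naive, and the TAM groups overlapped by a small margin. The log2 fold change over naive was 3.61 ± 0.76 in TAM-IC (edgeR adjusted p = 0.152, DESeq2 adjusted p = 9.05e-06) and 1.92 ± 0.71 in TAM-NIC (edgeR adjusted p = 0.292, DESeq2 adjusted p = 0.05415). For TAM-IC over TAM-NIC it was 1.69 ± 0.70 (edgeR adjusted p = 0.297). Without replicate 2 of TAM-IC it was 0.43, and 2.33 for TAM-IC over naive. It shares 312 exonic bases with Tmem189 on the other strand.

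Immediate early genes were higher in the same TAM libraries as Socs3 and Cebpb. The summed CPM of 11 immediate early and heat shock genes was 4424 and 15271 in TAM-IC, 3006 and 21975 in TAM-NIC, and 658 and 836 in naive macrophages. In both TAM groups replicate 2 was the higher library for this sum and for Socs3, Cebpb and Osm. Over naive, 10 of the 11 genes did not overlap and were higher in each TAM group, beside 3571 of 15522 genes in TAM-IC and 2577 in TAM-NIC. The median log2 fold change of the list was 3.94 in TAM-IC and 5.71 in TAM-NIC, against 0.004 and 0.06 over all genes tested. The highest sum lay in replicate 2 of TAM-NIC, as did the highest Il6 and Lif values. The part of this list in the Socs3, Cebpb, Il6 and Lif values was not tested.

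Cebpd (chromosome 16, 15887286 to 15891031, plus strand), the gene of C/EBP delta, followed another order and was lowest in TAM-NIC. It stood at 156 and 159 CPM in TAM-IC, 52.8 and 68.5 CPM in TAM-NIC, and 180.4 and 249 CPM in naive macrophages. The 3 groups did not overlap, and replicates of TAM-IC lay close together. The log2 fold change was 1.40 ± 0.28 for TAM-IC over TAM-NIC (edgeR adjusted p = 0.151, DESeq2 adjusted p = 0.000374) and -1.69 ± 0.28 for TAM-NIC over naive (edgeR adjusted p = 0.219, DESeq2 adjusted p = 6.61e-06). Against naive, TAM-IC had -0.29 ± 0.27 (edgeR adjusted p = 0.648). Neutrophil markers, with sums of 28604 and 50679 CPM in TAM-IC, 9354 and 18125 CPM in TAM-NIC and 48222 and 75155 CPM in naive macrophages, were also lowest in TAM-NIC. The 10 eosinophil and basophil markers were also lowest in TAM-NIC, with sums of 1032 and 1507 CPM in TAM-IC, 242 and 660.2 CPM in TAM-NIC, and 1939 and 2637 CPM in naive macrophages. The gap between TAM-IC and naive in these sums rested on Ccr3, at 14.4 and 21.7 CPM in TAM-IC and 1083 and 453 CPM in naive. Unlike the sum, Ccr3 was higher in TAM-NIC (169 and 488 CPM) than in TAM-IC. Epx and Prg2 were lowest in TAM-NIC and overlapped between TAM-IC and naive. The part of either list in the Cebpd value was not tested. In bulk samples fewer cells of a type and less RNA per cell cannot be told apart. Cebpd shares 562 exonic bases with Spidr on the other strand.

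In edgeR's test 0 of the 9 tested members passed an adjusted p of 0.05 in any comparison. Over all 15522 genes tested the share that passed was 0% for TAM-IC over TAM-NIC, 0.219% for TAM-IC over naive and 0% for TAM-NIC over naive. At an unadjusted p under 0.05 there were 3, 4 and 5 members, and 17.1%, 14.6% and 15.2% of all genes. DESeq2, which called far more genes, passed 3 members for TAM-IC over TAM-NIC (Stat3 and Cebpd higher, Il6 lower), beside 10.4% of all genes. For TAM-IC over naive it passed 4 (Lif, Stat3, Socs3 and Cebpb, all higher), beside 7.92% of all genes. For TAM-NIC over naive it passed 4 (Il6, Lif and Socs3 higher, Cebpd lower), beside 8.18%. limma-voom passed 0 members and 0 genes in each comparison. Groups of 2 libraries did not overlap for 2, 7 and 6 of the 9 members in these comparisons, beside 46.6%, 59.7% and 45.5% of all genes. A lack of overlap was thus common throughout.

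**Figure D3:**
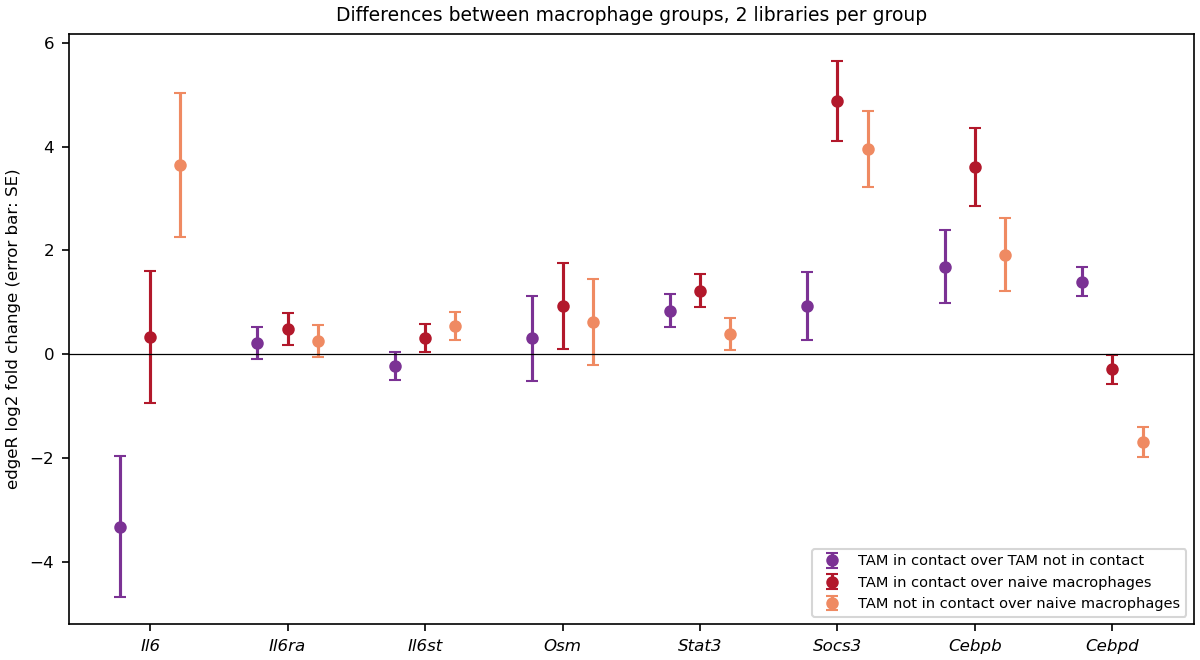
edgeR log2 fold changes of 8 members (y axis, error bars SE) in the 3 comparisons of macrophage groups, with 2 libraries per group. Lif, with 0 counts in naive libraries, and Osmr, not tested, are left out. Socs3 and Cebpb have positive values over naive in both TAM groups, and Cebpd has a negative value in TAM-NIC over naive.

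The order of the members per kilobase of exon differed between groups. In TAM-IC Cebpb was highest at 1174 ± 948, before Socs3 at 126 ± 99.2 and Stat3 at 71.4 ± 4.74, which overlapped, and Cebpd at 42.0 ± 0.515 (SD, n = 2). In TAM-NIC Cebpb was highest at 376 ± 190, and the ranges of Socs3, Stat3, Osm and Cebpd overlapped from one to the next. In naive macrophages Cebpb averaged 109 ± 5.31, Cebpd 57.3 ± 12.96 and Stat3 34.0 ± 3.53, while Socs3, at 4.81 ± 0.693, came after Il6ra. By its mean Socs3 was second in both TAM groups and sixth in naive macrophages, but in replicate 1 of either TAM group it lay below Stat3. In plasma cells Cebpb, at 22.2 ± 1.23, and Stat3, at 6.73 ± 4.69, stood apart from the rest, and Il6st, Cebpd, Osm, Il6ra and Socs3 overlapped from one to the next.

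The rest of the pathway was followed through 60 further genes, of which 55 were tested. In edgeR 0 of them passed in any comparison. Their median log2 fold change was 0.16 for TAM-IC over TAM-NIC, 0.56 for TAM-IC over naive and 0.54 for TAM-NIC over naive, against -0.002, 0.004 and 0.06 over all genes. DESeq2 passed 7 higher and 4 lower, 8 higher and 0 lower, and 8 higher and 5 lower in these comparisons, beside 10.4%, 7.92% and 8.18% of all genes.

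Among other ligands of the family, Il27, which encodes the p28 subunit of interleukin 27, stood at 12.7 and 9.49 CPM in TAM-IC, 11.3 and 5.19 CPM in TAM-NIC, and 3.35 and 3.60 CPM in naive macrophages. All TAM libraries lay above naive (1.83 ± 0.51 on the log2 scale for TAM-IC over naive, edgeR adjusted p = 0.224, DESeq2 adjusted p = 0.0152). Its partner subunit gene Ebi3 stood at 58.6 and 81.5 CPM in TAM-IC, 64.4 and 29.99 CPM in TAM-NIC, and 74.1 and 66.5 CPM in naive macrophages. TAM-IC overlapped both other groups, and TAM-NIC lay just below naive (-0.42 ± 0.42 on the log2 scale, edgeR adjusted p = 0.699). Clcf1, a ligand of the ciliary neurotrophic factor receptor, had a log2 fold change of 1.20 ± 0.35 for TAM-NIC over naive (edgeR adjusted p = 0.243, DESeq2 adjusted p = 0.0183). Il31, Cntf and the receptor gene Cntfr had 0 to 1 counts in each macrophage library.

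Among other receptor and kinase genes, Il11ra1, of the interleukin 11 receptor, had a log2 fold change of -1.13 ± 0.36 for TAM-IC over TAM-NIC (edgeR adjusted p = 0.218), and Il31ra, of the interleukin 31 receptor, 2.37 ± 0.70 (adjusted p = 0.205). The Janus kinase gene Jak2 stood at 181 and 184 CPM in TAM-IC, 104 and 150.1 CPM in TAM-NIC, and 85.1 and 105 CPM in naive macrophages. TAM-IC was the highest group in both libraries (1.10 ± 0.28 over naive, edgeR adjusted p = 0.201, DESeq2 adjusted p = 0.0133). Socs1, a feedback inhibitor of interferon signalling related to Socs3, had 1.89 ± 0.56 for TAM-IC over naive (edgeR adjusted p = 0.241), and Stat5b 1.31 ± 0.42 for TAM-IC over TAM-NIC (adjusted p = 0.218). Pias3, an inhibitor of STAT3, had -0.90 ± 0.25 for TAM-NIC over naive (edgeR adjusted p = 0.233). Adam17, the protease that can shed the interleukin 6 receptor, stood at 362 and 205 CPM in TAM-IC, 529.9 and 192 CPM in TAM-NIC, and 177 and 146 CPM in naive macrophages. All 4 TAM libraries lay above naive, and replicate 1 was the higher library in both TAM groups.

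Known STAT3 target genes differed in their patterns. Bcl3, an NF-kB cofactor, stood at 165 and 106 CPM in TAM-IC, 151 and 98.0 CPM in TAM-NIC, and 50.6 and 51.6 CPM in naive macrophages. Like Socs3 it was higher in all 4 TAM libraries than in naive (1.56 ± 0.34 for TAM-IC, edgeR adjusted p = 0.158, and 1.43 ± 0.34 for TAM-NIC, adjusted p = 0.221, on the log2 scale). Fos and Junb, which are also on the immediate early list, had 5.04 ± 0.98 and 3.66 ± 0.92 for TAM-IC over naive (edgeR adjusted p = 0.132 and 0.198). Myc stood at 123 and 66.4 CPM in TAM-IC, 165 and 2801 CPM in TAM-NIC, and 155 and 208 CPM in naive macrophages. Its high value lay, as for Il6, in replicate 2 of TAM-NIC, as did that of Il10, at 42.4 CPM against 0.308 to 6.76 CPM elsewhere among macrophages. Bcl6, a transcriptional repressor, had 1.16 ± 0.33 for TAM-IC over TAM-NIC (edgeR adjusted p = 0.203).

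Among C/EBP family and acute phase genes, Cebpe and Hp, which neutrophil precursors also express, were lowest in TAM-NIC, as was Cebpd. Cebpe, a C/EBP factor of granulocyte maturation, stood at 171 and 89.2 CPM in TAM-IC, 32.4 and 54.7 CPM in TAM-NIC, and 142 and 220.3 CPM in naive macrophages. The haptoglobin gene Hp stood at 976 and 1004 CPM in TAM-IC, 177 and 330.3 CPM in TAM-NIC, and 733 and 1168 CPM in naive macrophages. TAM-NIC was lowest for both, as it was for the neutrophil markers. The ceruloplasmin gene Cp was highest in TAM-NIC, at 45.8 and 19.1 CPM in TAM-IC, 86.7 and 925 CPM in TAM-NIC, and 19.6 and 12.4 CPM in naive macrophages (5.10 ± 1.18 for TAM-NIC over naive on the log2 scale, edgeR adjusted p = 0.219). Saa3, a serum amyloid gene, was at 4.76 and 0.665 CPM in TAM-IC, 0.895 and 10.6 CPM in TAM-NIC, and 0.064 and 0.0346 CPM in naive macrophages, where it had 3 counts and 1 count.

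The genes whose pattern over the 6 macrophage libraries was most like that of Il6 were S100a16, Lax1, Cth, Hist2h3c2 and Ccdc92. Their root-mean-square difference from Il6, on centred log2 CPM, was 0.415 to 0.461, beside a median of 1.86 over 12781 named protein-coding genes. Lax1, an adaptor of lymphocyte receptor signalling, stood at 7.57 and 3.99 CPM in TAM-IC, 9.67 and 124 CPM in TAM-NIC, and 5.55 and 12.3 CPM in naive macrophages. As for Il6, replicate 2 of TAM-NIC was the high library for all 5, so the likeness rests on that library.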

How the data were processed

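Libraries of 6 macrophage and 2 plasma cell samples came from a SMART-Seq v4 kit for low input, which does not mark strand, per the labels' protocols. The authors deposited whole-number read counts per gene in 2 tables. STAR, featureCounts, DESeq2 1.26, mm10 and GRCm38 are named in the submitters' processing notes. The sources used here do not give how strand and multi-mapping reads were handled. Of 47643 macrophage identifiers 47224 matched GENCODE M21 (GRCm38) without the version suffix. Coordinates are from it and count from 1. The plasma cell table was read by symbol.

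One edgeR 4.0.16 quasi-likelihood model (R 4.3.3, TMM, filterByExpr with minimum count 10) was fitted to the 6 macrophage libraries, with Benjamini-Hochberg adjustment over 15522 genes and a threshold of 0.05. SE was derived from the F statistic. CPM uses the library's total, and CPM per kilobase the union of GENCODE exons. Alternatives were DESeq2 1.42.0, limma-voom (limma 3.58.1), bias-adjusted quasi-dispersion, RLE, other filters, smaller fits, a replicate block and leaving out each library. The tests were checked on simulated counts.

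The members and lists were chosen with earlier results of these data known. The text names all 10 members. It draws other pathway genes from the up to 3 with the smallest p per list and comparison. Il31, Cntf and Cntfr were added after their values were seen. One pathway gene that the rule names is not reported here. It names the 5 genes nearest to Il6 in pattern. Replicates were numbered by the labels' mouse number, or in accession order for naive and plasma cell samples.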

Additional observations from a re-analysis of the deposited data

How the results depend on the processing

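Of 198 member fold changes refitted under settings that kept all libraries of a comparison, 1 changed direction (Osm in TAM-NIC over naive, -0.0034 in limma-voom). Calls below follow the order TAM-IC over TAM-NIC, TAM-IC over naive, TAM-NIC over naive. DESeq2 called 3, 4 and 4 members, 11, 8 and 13 other pathway genes, and 1618, 1229 and 1269 genes. With no filter edgeR called 3, 3 and 5 members, 11, 8 and 16 pathway genes, and 1871, 1437 and 1548 genes. Bias-adjusted quasi-dispersion called 22, 56 and 0 genes. For TAM-IC over naive, where the planned fit called 34 genes, RLE gave 22, a minimum count of 30 gave 0, limma-voom gave 0, and a fit of the 4 libraries compared gave 664 genes, 5 pathway genes and 2 members (Socs3 and Lif). The cause was not tested.

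With the mouse number as a replicate block, 59 genes, 0 pathway genes and 0 members were called between the TAM groups. The pairing did not hold for mouse 2: Ddx3y, a Y-linked gene, was at 88.4 CPM in TAM-IC and 0.258 CPM in TAM-NIC. For mouse 1 it was at 0 in both libraries, which does not contradict the label. Same-numbered deviations correlated at 0.136 over genes (2 pairs).

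Leaving out 1 library at a time gave 0 to 2 members in each comparison, 0 to 5, 0 to 3 and 0 to 4 pathway genes, and 0 to 1510, 0 to 534 and 0 to 477 genes; a group left with 1 library was assumed to vary like the others. Direction changed for TAM-IC over TAM-NIC in Il6ra (-0.0704 to 0.60), Il6st (-0.47 to 0.0064), Osm (-0.49 to 2.31), Lif (-3.34 to 0.16) and Socs3 (-0.28 to 1.60). Cebpb kept its direction but ranged between 0.43 and 2.38 there. Direction also changed for TAM-IC over naive in Il6 (-1.11 to 1.04), and for TAM-NIC over naive in Il6ra (-0.15 to 0.53) and Osm (-1.40 to 1.41).

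Without immunoglobulin genes in the total, mean plasma cell CPM was 0.100 for Il6, 32.6 for Il6ra, 48.4 for Il6st, 9.52 for Osm, 0.0187 for Lif, 201 for Stat3, 5.98 for Socs3, 107 for Cebpb and 16.0 for Cebpd. With 2 libraries per group, a count of 0 allows up to 0.104 CPM in a macrophage library.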
